A study of Homo sapiens with 2 samples.

Results

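Ribosomal proteins of the cytosol are the protein part of the 2 subunits of the ribosome, named RPL for the large subunit and RPS for the small subunit. Most are needed in equal number with their partners, and their messengers are short, abundant and built from few exons. Several limit their own output by unproductive splicing, in which a messenger is joined so that it carries an early stop codon and is degraded. Mutations that lower the dose of single ribosomal proteins cause Diamond-Blackfan anaemia, a failure to form red blood cells. Many of the genes also carry small nucleolar RNAs (snoRNAs), guides for modification of ribosomal RNA, inside their introns.

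The members were the gene symbols RPL or RPS followed by a number, together with RPLP0, RPLP1, RPLP2 and RPSA, without the RPS6K kinases and without pseudogenes. They came to 77 of the 12254 genes with an entry in 5 tables of splicing events, 48 of the large and 29 of the small subunit, and held 532 of 159490 events. The events were called by rMATS, a program that lists alternative splicing from RNA-seq reads, in polyA+ RNA of HEK293T cells, an established human embryonic kidney line. One group was untreated and the other received amiloride, a diuretic that blocks sodium channels and exchangers, at 300 µg/mL for 6 h, and each group was 1 library from the same line. All cells were grown in DMEM with 10% FBS and antibiotics, which the study's methods say were left out of the medium from the day before treatment, and no other agent or allele distinguished the groups in the labels.

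The columns of read counts and inclusion levels are numbered by sample and name neither the control nor the amiloride library, so no value was assigned to a condition. What follows describes which exons, sites and introns of ribosomal protein genes were listed and how they are built, with no difference between conditions and no test. A listed event means that both of its forms were defined, not how often either was used. The depth of the libraries and the kidney markers of the line could not be read from positions.

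Skipped exons, in which an exon is joined in or left out whole, made up 351 of the 532 events and touched all 77 genes. Mutually exclusive exons, in which either of a pair is used, followed with 146 events in 52 genes. Alternative 5' splice sites (5'SS), at the end of an exon, gave 16 events in 10 genes. Alternative 3' splice sites (3'SS), at the start of an exon, gave 13 events in 10 genes, and retained introns gave 6 events in 5 genes. As shares of the members' events these types took 66.0, 27.4, 3.01, 2.44 and 1.13%, beside 71.1, 24.998, 1.64, 1.80 and 0.424% over all genes.

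The large subunit genes held 302 events and the small subunit genes 230. Events were unevenly spread, with a median of 5 per gene and a highest of 43, beside a median of 8 over all genes. RPS2, a small subunit protein at the messenger entry side, had 43 events, and RPSA, the laminin receptor precursor that also sits in the small subunit, had 40. They were followed by RPL13A with 23, RPL5 with 20, RPS3 with 19, RPL10 and RPL3 with 18 each, RPL18 with 17, RPLP0 with 14 and RPL4 with 13. These 10 genes held 225 of the 532 events, whereas 10 other genes had 1 event each.

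**Figure D1:**
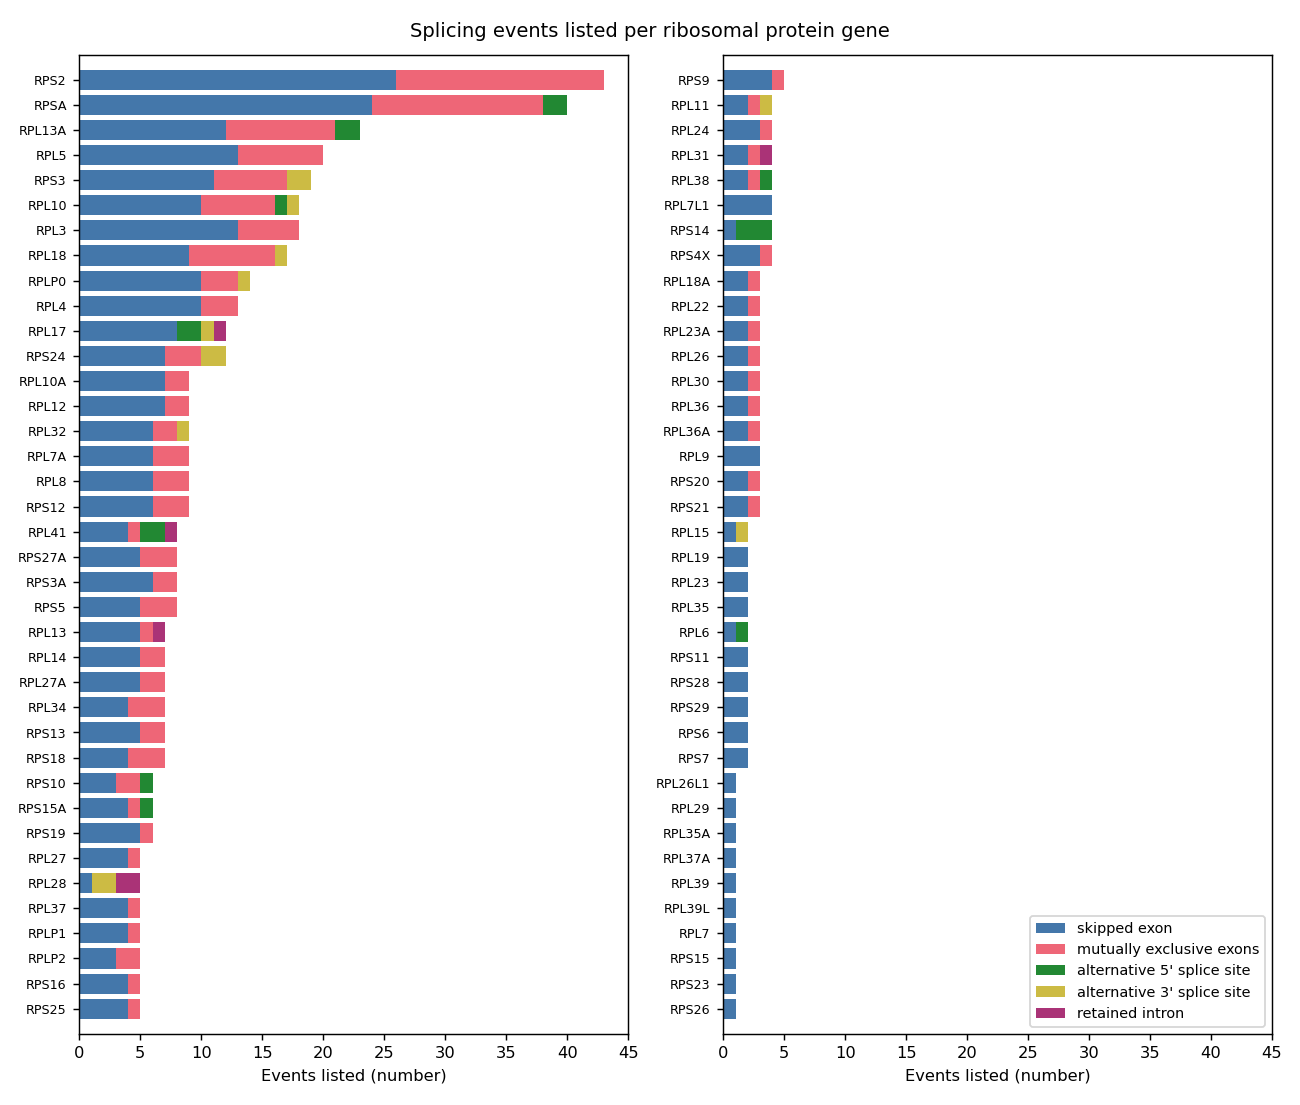
Number of events listed per ribosomal protein gene (horizontal axis), with 76 genes in rows and the bar colours standing for the 5 event types. RPS2 and RPSA, with 43 and 40 events, stand apart from the next gene, RPL13A, with 23.

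The 351 skipped exon events described 215 distinct exons, of which 202 belong to the canonical transcript, the one that the annotation takes to represent the gene. Canonical transcripts of the members have 3 to 10 exons with a median of 5, beside a median of 10 over all genes. Of their 274 internal exons 202 were listed, or 73.7%, beside 48.5% over all genes and 74.5% in the mitochondrial ribosomal protein genes, which encode the separate ribosome of that organelle. In 26 genes every internal exon was listed. The large subunit had 126 of 172 internal exons listed and the small subunit 76 of 102.

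RPS2 showed the densest pattern. All 5 of its internal exons were listed in 26 skipped exon events, with exon 4 in 7, exons 3 and 5 in 6 each, exon 6 in 4 and exon 2 in 3. In 5 of those events only the exon itself lies between the flanking exons, while in 21 at least 1 neighbour also lies between them, up to all 5 exons. For each of the 5 exons at least 1 skipping junction is in the annotation. RPSA also had its 5 internal exons listed, with exon 4 in 7 events and exon 5 in 6, yet none of its skipping junctions is annotated. Neither gene is free of copies, since 25 pseudogenes are named after RPS2 and 74 after RPSA, and whether reads of such copies entered the events was not tested.

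Events with 3 or more canonical exons between their flanking exons were a smaller share among the members than over all genes. Those with exactly 2 were a larger share. By the event positions, both forms of such an event lack the neighbours, and only the listed exon differs. The number that can lie between is bounded by the exons of the transcript, with a median of 5 for the members and 10 over all genes. How far this bound goes with the shares was not tested. In 334 events both flanking ends fall in the canonical transcript. A single canonical exon lies between them in 185, or 55.4%, beside 45.8% over all genes, 2 lie between them in 97 (29.0%, beside 24.9%), and 3 or more in 49 (14.7%, beside 27.6%). RPL5, which carries the 5S ribosomal RNA into the ribosome with RPL11, had 3 events of single exons and 10 of several. RPL3, at the peptidyl transferase centre, had 4 and 9. RPL4 had 3 and 7, and RPS3, which lines the messenger entry channel and also has a DNA repair role, had 4 and 7.

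Of the 215 exons 81 have a length divisible by 3, or 37.7%, beside 38.8% over all genes and 31.6% in mitochondrial ribosomal protein genes. Each of the 181 internal coding exons was taken alone out of the canonical transcript. The loss of 73 keeps the frame (40.3%), at a cost of 16 to 82 residues with a median of 36. The loss of 58 exons, or 32.04%, shifts the frame and puts a stop codon at least 50 bases before the last junction, the usual mark for nonsense-mediated decay. The same share was 52.3% over all genes and 47.5% in mitochondrial ribosomal protein genes. The loss of 29 exons (16.0%) gives an earlier stop that lies closer to the last junction or past it. This share was 6.86% over all genes and 19.0% in mitochondrial ribosomal protein genes. The loss of 21 (11.6%) gives no earlier stop at all, beside 1.64% over all genes and 1.68% in mitochondrial ribosomal protein genes. Counting any earlier stop raised the members' share from 32.04 to 48.07% and that of all genes to 59.4%.

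Position in the gene goes with these shares. Penultimate exons were 54 of the 202 canonical exons listed, or 26.7%, beside 9.80% over all genes and 23.9% in mitochondrial ribosomal protein genes. Canonical transcripts had a median of 5 exons in the members and in mitochondrial ribosomal protein genes, and of 10 over all genes. At that same median, an early stop came with 47.5% of internal coding exons in mitochondrial ribosomal protein genes and 32.04% in the members. No earlier stop came with 1.68 and 11.6%. The fewer internal exons a transcript has, the larger the part that is penultimate, whether listed or not. Whether penultimate exons were listed more often than other internal exons was not tested. Of the 21 exons whose loss gives no earlier stop 17 are penultimate, as are 20 of the 29 with a late one. No penultimate exon can give a stop far before the last junction, because its loss shifts the frame only past the junction that is then the last. The start codon lay in 18 listed exons, or 8.91% beside 3.54% over all genes, and in each of the 18 the exon was the second. Both exons with the stop codon belong to the small subunit, in RPS24 and RPS28.

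Among large subunit genes, RPL4 and RPL3 had the longest runs of such exons. Each outcome is for the exon removed alone, whereas 7 RPL4 and 9 RPL3 events also lack neighbouring exons in both forms. Outcomes of such events were not worked out. In RPL4, exons 2 to 6 of 10, with lengths of 172, 107, 139, 125 and 130 bases, all gave an early stop when removed, and exon 8 of 84 bases kept the frame. In RPL3, known to limit its own messenger through unproductive splicing, exons 3 to 6 of 10, with lengths of 169, 136, 187 and 161 bases, gave an early stop, and exons 7 and 8 kept the frame. No alternative 3'SS of RPL3 was in the tables used here. RPL12, a stalk base protein also known for unproductive splicing, had exons 2 and 4, of 74 and 82 bases, with an early stop, and exons 3 and 5, of 99 and 87 bases, in frame.

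RPL10A, which encodes the protein uL1, had exons 2 and 3 of 75 and 81 bases in frame and exon 4 of 149 bases with an early stop. RPL30 had exon 3 of 146 bases with an early stop and an annotated skipping junction, and exon 4 of 131 bases with a late one. RPL13A, which has a role in silencing inflammatory messengers outside the ribosome, had exon 2 of 73 bases with an early stop and exons 3, 4 and 6, of 66, 102 and 60 bases, in frame. In RPL18 no exon gave an early stop, since exons 2, 3 and 4 keep the frame and exons 5 and 6 shift it with no earlier stop. In RPL10, which joins the large subunit late, exons 3 and 5 gave an early stop and exon 4 of 108 bases kept the frame. RPLP0, the base of the acidic stalk, had early stops with exons 3 and 4 and a loss of 49 and 62 residues with exons 5 and 6.

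Among small subunit genes, RPS3 exons 2 to 5, of 131, 94, 95 and 188 bases, each gave an early stop, and each has an annotated skipping junction. These outcomes too are for the exon removed alone, whereas 7 RPS3 and 21 RPS2 events also lack neighbouring exons in both forms. RPS2 differed from RPS3 in that exons 3, 4 and 5, of 90, 108 and 174 bases, kept the frame and exon 6 gave a late stop. RPSA exon 4 of 246 bases was the longest exon listed, with 82 residues lost, and exon 3 of 119 bases gave an early stop. RPS9 had exon 3 of 123 bases in frame and exon 4 of 187 bases with a late stop. RPS24 had all 4 internal exons listed, of which exons 2, 3 and 4, of 66, 210 and 111 bases, keep the frame. RPL3, RPL10A, RPL12, RPL30, RPL13A, RPS3, RPS9 and RPS24, the 8 genes looked up for known unproductive or alternative splicing, held 98 events. Of their 31 canonical exons listed 13 gave an early stop, 13 kept the frame and 1 held the stop codon. Among internal coding exons the shares with an early stop and with the frame kept were 32.04 and 40.3% for all members. Over all genes they were 52.3 and 39.0%.

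The 7 listed genes looked up for mutations in Diamond-Blackfan anaemia had 40 events in all. Their listed exons were 17 of 28 internal exons, where all members had 73.7% listed and all genes 48.5%. Of the 17, 5 were in frame, 4 gave an early stop, 2 a late one and 5 no earlier stop, and 1 held the start codon. Among internal coding exons these first 4 shares were 40.3, 32.04, 16.0 and 11.6% for all members. Over all genes they were 39.0, 52.3, 6.86 and 1.64%. RPL5 carried 20 of the 40 events, with early stops from exons 2, 3 and 5. RPL11, which acts with RPL5 in holding back MDM2, had exon 3 of 107 bases with an early stop and exon 4 of 132 bases in frame. RPS19, the gene most often mutated in the disease, had the start codon exon 2, exon 4 of 184 bases with a late stop and exon 5 of 55 bases with no earlier stop.

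RPS7 had exon 3 of 72 bases in frame and exon 6 of 151 bases with no earlier stop. RPL35A had only exon 3 listed, of 153 bases and 51 residues, and RPS26 only exon 3, of 131 bases with no earlier stop. RPS10 had exon 4 of 78 bases in frame and exons 3 and 5, of 172 and 56 bases, with no earlier stop. The introns after the RPS10 exons, measured to the flanking exon of an event, reached 122683 bases, longer than in any other member. Intron lengths were taken over all events that share the exon, under any symbol. In the 3 skipped exon events of RPS10 itself only 1 exon lies between canonical flanking ends, so the long introns come from events listed under another symbol. RPS10-NUDT3, a symbol the rule leaves out, had 13 skipped exon events.

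Skipping junctions were seldom annotated. At least 1 was found in the annotation for 46 of the 215 exons, or 21.4%, beside 25.9% over all genes and 30.1% in mitochondrial ribosomal protein genes. Counted by event, 49 of 351 skipping junctions were annotated (14.0%), while both inclusion junctions were annotated in 235 (67.0%). The same 2 shares were 17.95 and 56.98% over all genes.

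Introns around the exons were short, with an intron taken as the stretch from the exon to the flanking exon of an event. Such a stretch can span other exons, as before exon 6 of RPL3, where it reached 3553 bases. Events with 3 or more canonical exons between their flanking exons were a smaller share among the members. How far this changed the lengths was not tested. The longest intron joined to each exon had a median of 770 bases before it and 785 after it, beside 3063.5 and 2659 bases over all genes and 2364.5 and 2465 bases in mitochondrial ribosomal protein genes. With the shortest intron in place of the longest the members' medians were 576 and 550 bases, beside 2200 and 2003. Both introns were at most 1000 bases for 71 exons, or 33.02%, beside 12.3% over all genes. Exon lengths were much the same, with a median of 108 bases for the members, 114 over all genes and 107 in mitochondrial ribosomal protein genes.

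Introns with a snoRNA adjoined 66 of the 202 canonical exons, or 32.7%, in 28 genes, beside 0.716% over all genes and 0 of 188 in mitochondrial ribosomal protein genes. In RPL13A 5 exons adjoined such an intron, in RPL4 also 5, and in RPL3 and RPSA 4 each. RPL18, RPLP0, RPS24 and RPS10 had none.

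Splice sites were scored against all annotated sites as a sum of log2 ratios of each base to an even base use, over 9 bases for the 5'SS and 23 for the 3'SS. The 5'SS of the members' exons had a median score of 8.63, beside 8.07 over all genes and 7.45 in mitochondrial ribosomal protein genes. The 3'SS had a median of 8.93, beside 9.21 and 9.86. The members' 5'SS thus stood above, and their 3'SS below, both other medians, by less than the distance between the members' own quartiles, which were 6.82 and 9.92 for the 5'SS and 7.15 and 10.97 for the 3'SS. Large subunit exons had medians of 8.88 and 9.07, and small subunit exons 8.21 and 8.58.

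**Figure D2:**
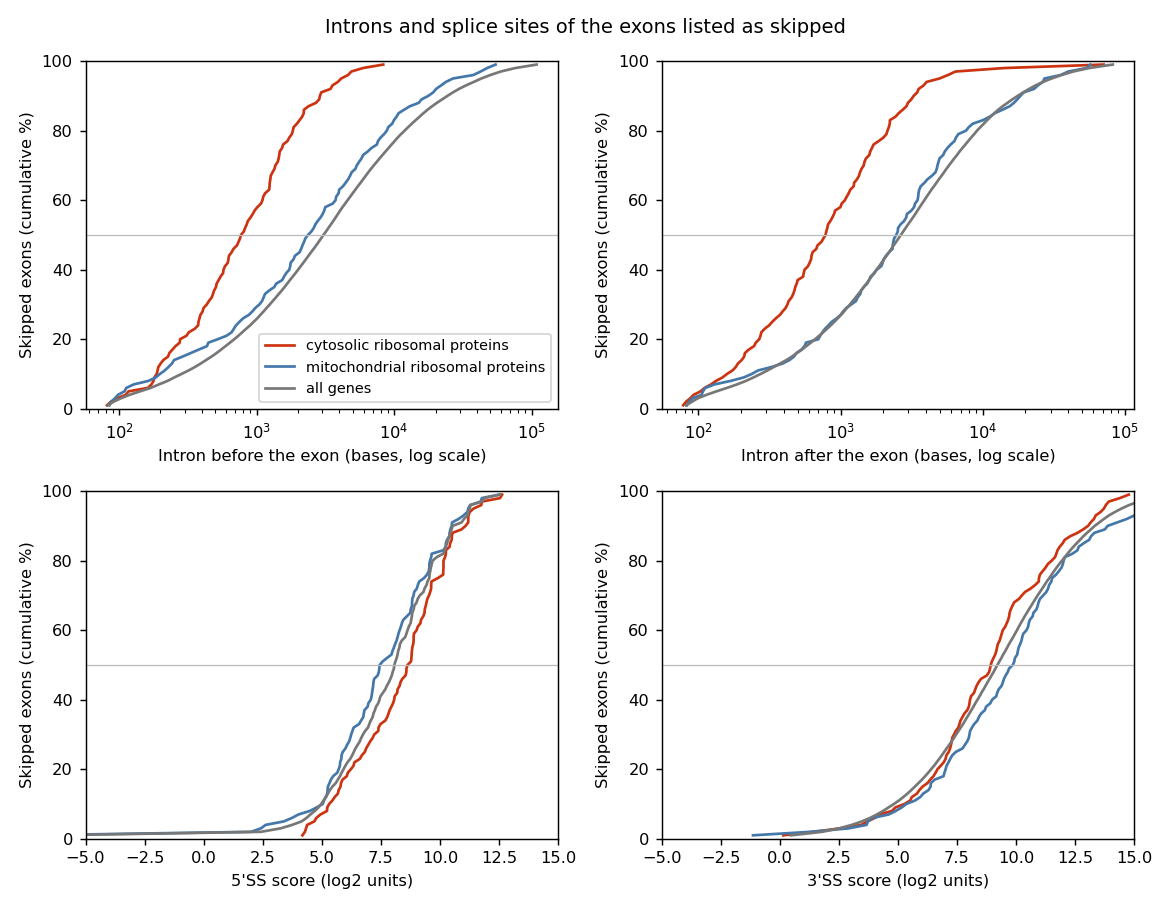
Cumulative share of skipped exons (vertical axis, %) by the longest intron before and after the exon (upper panels, bases on a log scale) and by 5'SS and 3'SS score (lower panels, log2 units), for cytosolic ribosomal proteins, mitochondrial ribosomal proteins and all genes. Introns run to the flanking exon of an event and can span other exons. The intron curves of the cytosolic ribosomal proteins lie to the left, with medians of 770 and 785 bases, while the score curves lie close together.

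The spread of sites within single genes was wide, and RPL4 and RPL5 show it. The windows below, on GRCh37, run across the splice site with the first or last 2 intron bases in capitals, and are shown because they are among the weakest and strongest scores of the members' exons. RPL4 lies on the minus strand of chromosome 15, with exon 3 at chr15:66795396-66795502 and exon 4 at chr15:66794950-66795088, and RPL5 exon 3 on the plus strand at chr1:93299102-93299217. RPS27A, a ubiquitin fusion of the small subunit named here for its low value, has exon 3 at chr2:55460499-55460553 on the plus strand, with GC in place of GT.
RPL4 exon 3 5'SS: aacGTatcc
RPL4 exon 4 3'SS: attcttgactggaaaaatAGatg
RPL5 exon 3 5'SS: cagGTaagt
RPL5 exon 3 3'SS: caattatttttttctttcAGagg
RPS27A exon 3 5'SS: aagGCaagt
The 2 RPL4 sites both scored -0.01, and the exons were listed in 1 and 3 events. The RPL5 5'SS scored 12.65, the highest among the members and equal to exon 4 of RPL34 and of RPLP2, and its 3'SS 14.47, and that exon was listed in 3 events. The RPS27A site scored -6.65, the lowest 5'SS among the 215 exons, and its exon of 55 bases was listed in 2 events. That score follows largely from the GC, since the base frequencies came from sites with GT only.

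Alternative 5'SS came as 12 distinct pairs in 10 genes. The pairs were 4 to 217 bases apart, with 3 of 12 distances divisible by 3. Counted by event this was 4 of 16, or 25%, beside 44.2% over all genes. In 8 of the 10 pairs that hold the canonical site, that site had the higher score, a share not counted over all genes. The pairs of 4 genes are shown on GRCh37, from 15 bases before the first site to 15 bases after the other, with the stretch that only the longer form keeps in capitals. RPL13A lies at chr19:49993155-49993194 on the plus strand and RPSA at chr3:39450201-39450245 on the plus strand, both inside the coding sequence. RPL10 at chrX:153626721-153626754 on the plus strand and RPS10 at chr6:34393790-34393823 on the minus strand end the first exon, before the start codon.
RPL13A exon 2: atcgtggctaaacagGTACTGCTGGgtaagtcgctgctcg
RPSA exon 3: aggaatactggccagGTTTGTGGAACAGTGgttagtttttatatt
RPL10 exon 1: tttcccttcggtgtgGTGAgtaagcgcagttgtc
RPS10 exon 1: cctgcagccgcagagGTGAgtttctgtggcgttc
In RPL13A the canonical longer form, 10 bases longer and thus in another frame, scored 8.83 against 5.22 for the shorter. In RPSA the longer form adds 15 bases in frame and scored 5.69 against 6.35 for the canonical shorter form.

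The 4-base pairs of RPL10 and RPS10 differed in strength. The canonical shorter site of RPL10 scored 8.81 and its longer site 4.21, whereas in RPS10 the scores were 10.96 and -4.04. The longer RPS10 junction is not annotated, and it was the weakest 5'SS among the 12 pairs.

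Most of the other 5'SS pairs lay before the start codon. RPS14 had 3 competing sites, 6, 211 and 217 bases apart, with scores of 9.40 and 7.39 for the 2 sites downstream and 8.92 for the canonical one. RPL6 had sites 176 bases apart, with 11.16 for the canonical shorter form against 8.05. RPL41 had sites 140 bases apart, and the canonical one follows the first codons. The distances were 66 bases in RPS15A, 35 in RPL38 and 17 in RPL17. RPS15A went the other way from most, since its canonical longer form scored 4.32 and the shorter form 9.30.

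Alternative 3'SS came as 13 pairs in 10 genes, 3 to 3624 bases apart, with 8 of 13 distances divisible by 3, or 61.5%, beside 58.9% of events over all genes. A distance of 3 bases was found in 3 of 13, or 23.1%, beside 25.03%. The canonical site scored higher in 10 of the 12 pairs that hold it, a share also not counted over all genes. The pairs up to 11 bases apart are shown on GRCh37, with the stretch kept only by the longer form in capitals, and all but RPL18 are on the plus strand. They lie at chr1:24019084-24019116 for RPL11, chr19:49120658-49120695 for RPL18, chrX:153628790-153628830 for RPL10, and chr10:79797705-79797737 and chr10:79799944-79799976 for RPS24.
RPL11 exon 2: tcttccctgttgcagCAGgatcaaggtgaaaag
RPL18 exon 3: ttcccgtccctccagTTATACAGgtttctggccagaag
RPL10 exon 6: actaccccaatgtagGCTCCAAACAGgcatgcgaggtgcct
RPS24 18-base exon: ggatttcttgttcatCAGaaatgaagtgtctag
RPS24 22-base exon: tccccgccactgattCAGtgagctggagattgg
RPL11 showed the usual tandem of 2 AG sites 3 bases apart, with 8.52 for the canonical longer form and 7.88 for the shorter, a difference of 1 codon. RPL18 and RPL10 shift the frame, by 8 and 11 bases, and in both the canonical longer form scored higher, by 2.15 and 2.51.

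RPS24, whose short 3' exons change the last residues of the protein between tissues, stood apart. In each of its 2 pairs the shorter form starts after an AG, with scores of 9.55 and 3.33. The longer form would start 3 bases earlier, after AT in the 18-base exon and after TT in the 22-base exon, and scored -10.04 and -34.65. No AG precedes those starts on this build, whereas the scored 3'SS windows of the other 11 pairs all end the intron in AG. The low scores follow largely from the missing AG, since the base frequencies came from sites with AG only. The longer junction of the 18-base exon is not annotated, whereas that of the 22-base exon is. The exons themselves, with 20 intron bases on each side and the exon in capitals, lie at chr10:79797703-79797760 and chr10:79799942-79800003.
RPS24 18-base exon: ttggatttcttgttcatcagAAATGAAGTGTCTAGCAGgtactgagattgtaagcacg
RPS24 22-base exon: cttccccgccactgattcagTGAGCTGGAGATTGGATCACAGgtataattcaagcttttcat
The 22-base exon opens with the stop codon of the canonical transcript. Both exons have an annotated skipping junction.

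The remaining 3'SS pairs were farther apart. In RPS3 the sites of exon 4 lay 48 bases apart in the coding sequence, with 9.23 for the canonical shorter form against 6.28, and a second pair 31 bases apart scored 10.34 against 0.14. RPL15 had sites 13 bases apart with 8.36 for the canonical shorter form against 2.51. RPLP0, RPL32 and RPL17 had sites 60, 99 and 249 bases apart, and RPL28 had 2 pairs, 3311 and 3624 bases apart, that share their far site. In RPL32 the canonical shorter form had the lower score, 4.74 against 5.81.

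Retained introns were listed in RPL13, RPL17, RPL28 (2), RPL31 and RPL41, with a median length of 172.5 bases beside 283 over all 677 events. The 141-base stretch of RPL13 and the 278-base intron of RPL31 are shown on GRCh37, with the terminal GT and AG in capitals, because the first lies inside a coding exon and the second is a full intron of the canonical transcript. They lie at chr16:89628007-89628147 and chr2:101622534-101622811, both on the plus strand.
RPL13: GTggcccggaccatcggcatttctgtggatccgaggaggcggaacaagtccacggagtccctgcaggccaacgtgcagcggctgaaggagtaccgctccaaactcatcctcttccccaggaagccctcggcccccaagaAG
RPL31: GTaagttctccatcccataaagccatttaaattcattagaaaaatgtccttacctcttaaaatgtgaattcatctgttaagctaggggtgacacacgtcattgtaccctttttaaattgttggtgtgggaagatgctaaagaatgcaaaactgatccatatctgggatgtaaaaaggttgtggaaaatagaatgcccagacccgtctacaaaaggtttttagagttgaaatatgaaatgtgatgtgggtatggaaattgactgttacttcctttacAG
The RPL13 stretch lies within exon 4 of 6, so the retained form is the canonical messenger and the spliced form lacks 47 codons in frame. Its sites scored 4.23 and -1.22, and the 3'SS was the weakest of the 6 events. RPL31 has sites of 9.55 and 11.05 around intron 4, the last of the transcript, and reading on into the intron meets a stop at base 18.

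RPL28 had its last intron, of 194 bases, with 62.4% GC and sites of 8.002 and 7.97, and reading on meets a stop at base 166. Its second event joins the same 5'SS to a site 3505 bases on. In RPL41, whose product is the smallest ribosomal protein, the 115-base stretch lies within exon 1 of the canonical transcript, with sites of 8.06 and 13.78. The RPL17 intron of 151 bases is not in the canonical transcript. The spliced form of each of the 6 is annotated.

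RPL41 also had the shortest coding exon of the large subunit. Its exon 2 of 23 bases, at chr12:56510973-56510995 on the plus strand, is shown in capitals with 20 intron bases on each side.
RPL41 exon 2: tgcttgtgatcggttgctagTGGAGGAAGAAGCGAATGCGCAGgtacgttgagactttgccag
Its 3'SS scored 1.13 and its 5'SS 9.66. It was listed in 2 events, its skipping junction is annotated, and its loss shifts the frame without an earlier stop.

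Mutually exclusive pairs largely repeated the skipped exons. In 143 of 146 events (97.9%) both exons were also listed as skipped, a share not counted over all genes. Both were canonical in 135, or 92.5%, beside 86.4% over all genes. The pair was neighbouring exons in 102, or 69.9%, beside 60.5% over all genes. None of the pairs had equal lengths, beside 0.948% over all genes. Their lengths differed by a multiple of 3 in 66, or 45.2%, beside 35.6%, a count by length alone that takes in exons with the start codon. RPS2 had 17 such events, 14 of them with lengths that differ by a multiple of 3, some of these with its start codon exon, and RPSA had 14, with 3 of that kind.

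Genes that work beside the ribosomal proteins were listed as well. Of 17 looked up 15 had an event, among them NPM1, a nucleolar chaperone of ribosome assembly, with 83, the elongation factor EEF1D with 49, GNB2L1, the older symbol of the small subunit scaffold RACK1, with 21, and FAU, which encodes a ribosomal protein fused to a ubiquitin-like protein, with 5. RPL36AL had no row in the tables used here, and RACK1, counted apart among the 17, appears only under its older symbol. The rule took in 3 paralogs, RPL7L1 with 4 events and RPL26L1 and RPL39L with 1 each, and 7 annotated symbols that meet it, among them RPL21 and RPS27, had no row.

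Named pseudogenes exist for 74 of the 77 genes, with a median of 13 and a highest of 87 for RPL23A. How reads shared with such copies were placed is not given in the sources used here.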

How the data were processed

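PolyA+ RNA of HEK293T cells, 1 control and 1 amiloride library, was sequenced. The authors aligned the reads with STAR 2.5.1 to hg19 (GRCh37), per the submitters' processing notes, and listed splicing events with rMATS in 5 tables, 1 per event type. The rMATS version and annotation are not given in the sources used here. The deposited tables hold event positions, effective lengths, read counts and inclusion levels for both libraries, and the authors' comparison columns (p-value, FDR and inclusion difference), which were not used. The 30 per-library columns carry numbers that match no label and were used in no step, so no depth, level or comparison between conditions is given and no test was run. A single library stood for each condition, so nothing here carries a replicate error.

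Positions were read against GRCh37 with GENCODE release 44 lifted to that build. The build was checked by the intron bases next to each exon: AG and GT flanked 213 of the members' 215 exons and 98.9% of all exons. The deposited effective length of the longer form exceeded that of the shorter by the whole added stretch in every event other than mutually exclusive pairs, with 125 for the shorter form. Identical exons were counted once, with introns, events per exon and skipping junctions per exon taken over all symbols that list the exon. Each canonical exon was removed alone from its transcript, and a stop at least 50 bases before the last junction was called premature. The 5'SS (3 exon and 6 intron bases) and 3'SS (20 intron and 3 exon bases) were scored against matrices of 300873 and 300290 annotated sites with a pseudocount of 0.5. Functions were tested on simulated transcripts and sites. Python 3.11.15, pandas 2.3.3, pysam 0.24.0 and scipy 1.17.1 were used. Named genes were the 10 with most events, those with a retained intron or alternative site, and lists of genes with known splicing or anaemia mutations. The members and lists were chosen with earlier results of these data known. The alternatives merged overlapping exons, left out paralogs or exons without AG and GT, counted events with the same positions once, used protein-coding transcripts only, other definitions of a premature stop, another pseudocount and the shortest introns. Some single genes are not reported here by name or in the figures, and stay in the counts.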

Additional observations from a re-analysis of the deposited data

How the results depend on the processing

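Of 20 alternatives computed, 17 left the value within 1.5 times a count, within the 95% binomial interval of a share or within the binomial interval of a median. The share of coding exons whose loss gives a premature stop moved from 32.04 to 48.07% when any earlier stop was counted. The medians of the introns before and after the exons moved from 770 and 785 to 576 and 550 bases with the shortest introns. Both moves follow from the definitions, and these intervals cover the number of exons only, not the spread between libraries. No paired analysis was possible because no result comes from a test and the groups hold 1 sample each, which also leaves no library to omit. Without counts tied to a library, the depth behind an event is unknown here, so an exon with no event was not shown to be always included.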
